A study of Mus musculus with 4 samples.

Results

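The gene set described here is Il10 and 4 transcription factors that regulate it, Maf, Prdm1, Batf and Irf4, read in single CD4 T cells of the mouse colon. The 5 genes were chosen by name out of the 25724 genes of the counts table, and they were read in the 1050 of 1985 barcodes that had at least 500 counts, at least 200 detected genes and under 20% mitochondrial counts. The labels give 4 samples in 1 group, named for Btheta and colon, from male B6 mice aged 6 weeks. Cells had been sorted as CD45+ TCRb+ CD4+ from digested colon lamina propria and profiled by inDrops, in which single cells are captured in droplets and their RNA is primed with oligo dT. All 4 samples share the Btheta of the group name. Apart from it, the labels name no genotype, no treatment and no number of animals per sample. No barcode carries a sample name, so the table was handled as 1 sample: every comparison below is between cells of that table, has no replicate check and carries no p-value.

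IL-10, the protein of Il10, is a cytokine that restrains inflammation, and in the colon regulatory T cells (Treg cells) that carry the transcription factor Foxp3 are among its main T cell sources. c-Maf, the product of Maf, is a bZIP factor that binds and activates the Il10 gene in several T cell types. Prdm1 encodes Blimp-1, a zinc finger repressor of genes of naive and memory cells that is also needed for full Il10 expression in Treg cells. BATF is a bZIP factor that pairs with Jun proteins and, together with IRF4, binds composite elements in which an AP-1 site lies next to an IRF site; both are needed for the effector state of Treg cells. Foxp3, Gata3 and Ikzf2 (Helios) served as gates: Gata3 marks a tissue Treg subset as well as type 2 helper cells, and Helios is frequent in Treg cells of thymic origin.

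In the mm10 build, GENCODE vM21 places the protein-coding genes Il10 on chromosome 1 at 131019845 to 131024974, plus strand, and Maf on chromosome 8 at 115682942 to 115707794, minus strand. Prdm1 lies on chromosome 10 at 44437177 to 44528501, minus strand. Batf lies on chromosome 12 at 85686669 to 85709087 and Irf4 on chromosome 13 at 30749226 to 30766976, both on the plus strand. RefSeq promoter windows (GRCm38.p6) were held for 3 of the 5 members, and the bases before the first annotated exon base are shown because Prdm1 and Batf stood higher in cells with Foxp3 while Irf4 did not. The Prdm1 window, chr10:44458749-44458998 on the minus strand, starts inside the GENCODE gene, at an inner start site. The Batf window is chr12:85686470-85686668 and the Irf4 window is chr13:30748983-30749225, both on the plus strand. Capitals mark the only match to a searched motif, an AP-1 site.
Prdm1: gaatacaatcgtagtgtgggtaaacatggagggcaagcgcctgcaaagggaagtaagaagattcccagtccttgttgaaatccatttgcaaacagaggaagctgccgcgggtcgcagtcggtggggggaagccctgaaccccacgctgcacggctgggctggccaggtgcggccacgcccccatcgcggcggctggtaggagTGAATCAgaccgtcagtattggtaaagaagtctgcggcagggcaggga
Batf: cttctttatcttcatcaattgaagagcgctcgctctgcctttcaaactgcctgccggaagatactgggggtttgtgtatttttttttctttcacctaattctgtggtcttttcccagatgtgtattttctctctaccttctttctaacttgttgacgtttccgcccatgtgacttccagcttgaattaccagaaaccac
Irf4: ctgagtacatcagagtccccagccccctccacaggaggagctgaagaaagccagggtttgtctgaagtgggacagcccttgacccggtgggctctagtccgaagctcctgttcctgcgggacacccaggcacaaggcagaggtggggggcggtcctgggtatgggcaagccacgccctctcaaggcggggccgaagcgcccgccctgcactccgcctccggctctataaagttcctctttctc
Both strands were searched for the AP-1 site TGANTCA, for composite elements (TGANTCA followed after any 4 bases by GAAA, or directly preceded by GAAA), for GAAA repeated after any 2 bases, which IRF factors bind, and for TGCTGAC, a part of the Maf recognition element; the composite elements contain the AP-1 letters. The match in Prdm1, TGAATCA, spans -48 to -42 from the start. Among 32851 promoter windows, TGANTCA was found in 7.81%, the composites in 0.119% and 0.125%, the GAAA repeat in 3.44% and TGCTGAC in 4.67%. The match describes the letters of the window and says nothing of binding.

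The kept cells held 1549040 counts, with a median of 1235.5 counts per cell, quartiles of 963 and 1723.25 and a range of 501 to 13023. CD4 T cell markers fixed for this purpose were found in 98.2% of cells, and none of the 10 was at 0. Epithelial markers were found in 47 cells, and 10 cells with at least 2 of them were deep, at a median of 6760.5 counts, and held no Il10 count. Levels below are CPM, the counts of a gene per 1000000 counts. They are pooled over cells, and their intervals are exact 95% intervals that cover counting error only. Counts of Il10 varied between cells by more than Poisson sampling gives, with a variance 5.33 times the mean, so these intervals are too narrow as a statement about cells; shares of cells are given beside the main levels for that reason.

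Il10 and Maf were common in these cells, and the other 3 regulators were each caught in few of them. Il10 had 869 counts in 266 cells, a level of 561 CPM (524 to 600), and 25.3% of cells held at least 1 count (22.7 to 28.1). Among those 266 cells, 102 held 1 count, 50 held 2 and 114 held 3 or more, up to 16 in 1 cell. Maf had 1884 counts in 657 cells, 62.6% of all (59.6 to 65.5), with up to 17 counts in 1 cell. These are genes for which a cell with a count usually held more than 1. Prdm1 had 125 counts in 83 cells (7.90%, 6.35 to 9.71). Batf had 112 counts in 87 cells (8.29%, 6.69 to 10.1). Irf4 had 103 counts in 65 cells (6.19%, 4.81 to 7.82). Most cells positive for these 3 held a single count, 67.5% for Prdm1, 78.2% for Batf and 61.5% for Irf4, so a cell without a count of them cannot be read as a cell without the transcript. After each cell was thinned to 500 counts, Il10 was left in 16.8% of cells, Maf in 39.6%, Prdm1 in 2.95%, Batf in 3.14% and Irf4 in 3.05%.

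Naive T cells make little or no IL-10, and their shares gave the background. In 64 naive-like cells, defined by at least 2 of 6 naive markers and no Foxp3 count and with a median of 1429 counts, Il10 was found in 1 cell (1.56%, 0.0396 to 8.40) and Maf in 8 (12.5%, 5.55 to 23.2). Prdm1 and Irf4 were each found in 1 of these cells (1.56%) and Batf in 3 (4.69%, 0.977 to 13.1). Il10 and Maf thus stood well above this background in the other cells. For Batf the share over all cells, 3.14% after thinning, was below the 4.69% of naive-like cells, so its share is not distinguishable from that background at this depth. Prdm1 and Irf4 were found in 0 of the 64 cells after thinning, which allows a share of up to 4.69% by the limit of 3 counts and up to 5.60% by the exact interval.

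Cells with Foxp3 carried more Il10, Maf, Prdm1 and Batf than cells without it, and Irf4 was the member that did not. A Foxp3 count was found in 332 cells, with a median of 1304.5 counts per cell, and none in 718, with a median of 1215. Il10 stood at 942 CPM in cells with Foxp3, against 371 CPM in cells without it, a log2 ratio of 1.34 (1.15 to 1.54); it was found in 44.0% (38.6 to 49.5) against 16.7% (14.1 to 19.6) of cells. A cell positive for Il10 held 3.32 counts on average in the cells with Foxp3 and 3.20 in the cells without it, so the groups differed in how many cells were positive more than in the counts of a positive cell. Maf stood at 1591 against 1030 CPM (log2 ratio 0.63, 0.49 to 0.76).

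The low-count regulators followed the same gate less evenly. Prdm1 had 69 counts in cells with Foxp3 and 56 in cells without it, 134 against 54.1 CPM (log2 ratio 1.31, 0.78 to 1.84). Batf had 60 and 52 counts, 117 against 50.3 CPM (1.21, 0.65 to 1.78). Irf4 had 31 and 72 counts, 60.2 against 69.6 CPM, and its interval spanned 0 (-0.21, -0.87 to 0.42). In all, 4 of 5 members were at least 1.5-fold higher in cells with Foxp3, where 10.3% of the 4789 genes with at least 50 counts were; the median log2 ratio was 1.21 over the members and 0.01 over all those genes. Thinning left 2 of the 5, Il10 and Batf, at that fold. The sparse members then had intervals that spanned 0, with log2 ratios of 0.53 (-0.56 to 1.57) for Prdm1, 0.79 (-0.25 to 1.81) for Batf and 0.40 (-0.67 to 1.42) for Irf4, whose sign turned. Without the naive-like cells 3 of 5 were past it.

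**Figure D1:**
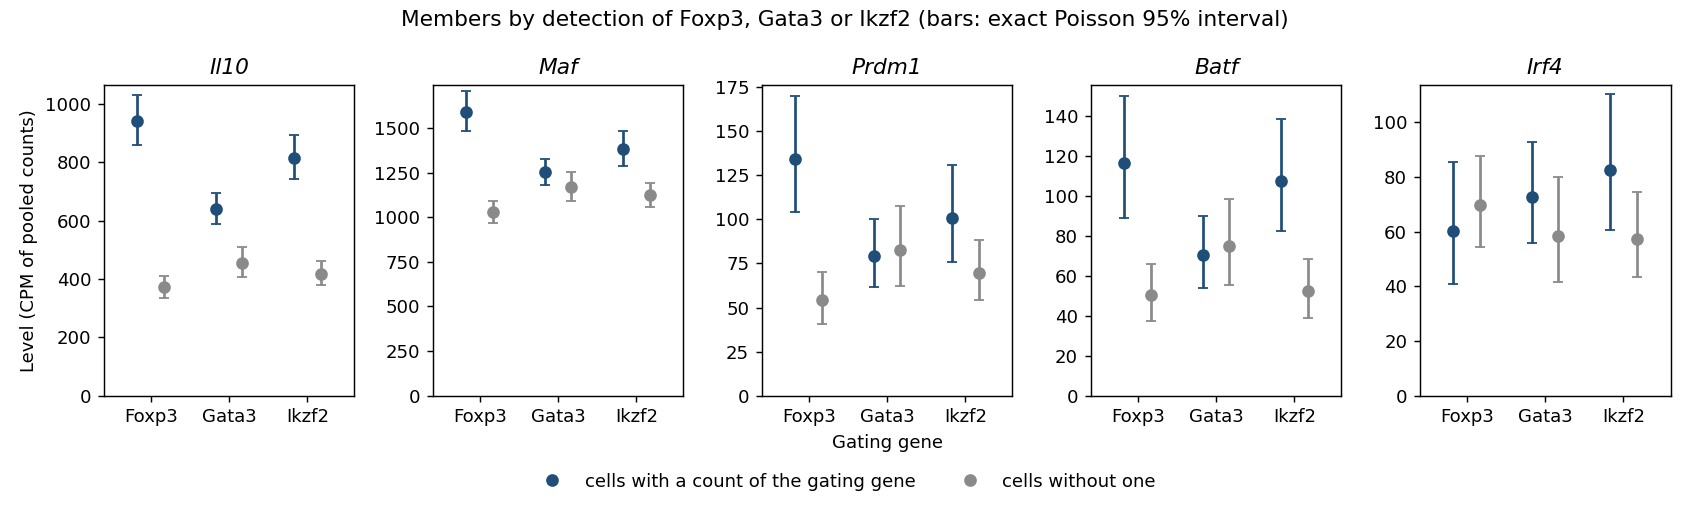
Level of each member, in CPM of pooled counts on its own linear axis, in cells with (blue) and without (grey) a count of Foxp3, Gata3 or Ikzf2; points are pooled levels and bars exact Poisson 95% intervals. Il10, Maf, Prdm1 and Batf lie higher in cells with Foxp3, Irf4 does not (60.2 against 69.6 CPM), and no member separates by Gata3 as far as Il10 does by Foxp3.

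Gata3 detection went with little difference in the members. It was found in 572 cells, with a median of 1336 counts, and not in 478, with a median of 1161. Il10 stood at 641 CPM in cells with Gata3 and 456 CPM in cells without it (log2 ratio 0.49, 0.29 to 0.70), and its share of cells was 28.7% against 21.3%; after thinning the shares were 17.8% (14.8 to 21.2) and 15.5% (12.4 to 19.0), whose intervals overlap. Maf stood at 1252 against 1169 CPM (0.10, -0.03 to 0.23). Prdm1, Batf and Irf4 had log2 ratios of -0.05, -0.09 and 0.31, with intervals that spanned 0. None of the 5 members, 0 of 5, was 1.5-fold higher, where 10.1% of genes were.

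Ikzf2 detection went with more Il10 and Batf. Ikzf2 was found in 358 cells, with a median of 1339 counts, and not in 692, with a median of 1206. Il10 stood at 816 CPM in cells with Ikzf2 and 418 CPM in cells without it (log2 ratio 0.96, 0.77 to 1.16), and was found in 36.6% (31.6 to 41.8) against 19.5% (16.6 to 22.7) of them. Batf stood at 108 against 52.4 CPM (1.04, 0.48 to 1.61), but at 0.30 (-0.78 to 1.33) after thinning. Maf was higher by 0.30 (0.16 to 0.43), while Prdm1, at 0.53 (-0.00 to 1.06), and Irf4, at 0.53 (-0.07 to 1.11), had intervals that reached below 0. The interval for Maf also reached below 0 with counts capped at 1 (0.17, -0.06 to 0.40). It did so too without naive-like cells and cells with at least 2 epithelial, myeloid, or stromal or endothelial markers (0.13, -0.00 to 0.27). After thinning the ratio for Maf was 0.47 (0.25 to 0.69). Here 2 of 5 members were at least 1.5-fold higher, against 10% of genes.

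The 3 gates make 8 combinations, and Il10 lay in a high and a low range across them. In order, Il10 stood at 1222 CPM in the 45 cells with Foxp3 and Ikzf2 but no Gata3, 1171 CPM in the 80 with Foxp3 and Gata3 only, 862 CPM in the 121 with all 3, 729 CPM in the 131 with Gata3 and Ikzf2 but no Foxp3, 718 CPM in the 86 with Foxp3 only and 635 CPM in the 61 with Ikzf2 only. It then stood at 260 CPM in the 240 cells with Gata3 only and 225 CPM in the 286 cells with none of the 3. Of the 7 steps between neighbours in that order, 2 had an interval that left out 0: the step from the second to the third, 0.44 (0.12 to 0.77), and the step from Ikzf2 only to Gata3 only, 1.29 (0.77 to 1.79). The other neighbours do not differ beyond counting error. The combinations with Foxp3, Ikzf2 or both therefore lay between 635 and 1222 CPM, and those with neither lay at 260 and 225 CPM.

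Point values of the unthinned shares of cells gave the same division. Il10 was found in 50% of cells with Foxp3 and Gata3 only, 48.9% of those with Foxp3 and Ikzf2 only, 44.6% with all 3, 34.9% with Foxp3 only, 29.0% with Gata3 and Ikzf2, and 27.9% with Ikzf2 only. It was found in 13.3% (9.30 to 18.3) of cells with Gata3 only and 11.5% (8.08 to 15.8) of cells with none. After thinning, Il10 was found in 16.8% (10.8 to 24.3) of cells with Gata3 and Ikzf2 and 21.3% (11.9 to 33.7) with Ikzf2 only. The thinned shares were 7.5% (4.51 to 11.6) with Gata3 only and 8.39% (5.45 to 12.2) with none. The interval for Gata3 and Ikzf2 overlaps both of these. The interval for Ikzf2 only overlaps that of cells with none and lies just above that of cells with Gata3 only. Maf had a narrower range, with 1841 CPM in the highest combination (Foxp3 and Ikzf2) and 832 CPM in cells with none of the gates (log2 ratio of highest over lowest 1.15, 0.82 to 1.46), where the same ratio for Il10 was 2.44 (1.97 to 2.91). Irf4 had its highest level, 110 CPM, in cells with Gata3 and Ikzf2 but no Foxp3, and its highest and lowest combinations did not differ beyond counting error (1.62, -0.11 to 4.0).

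**Figure D2:**
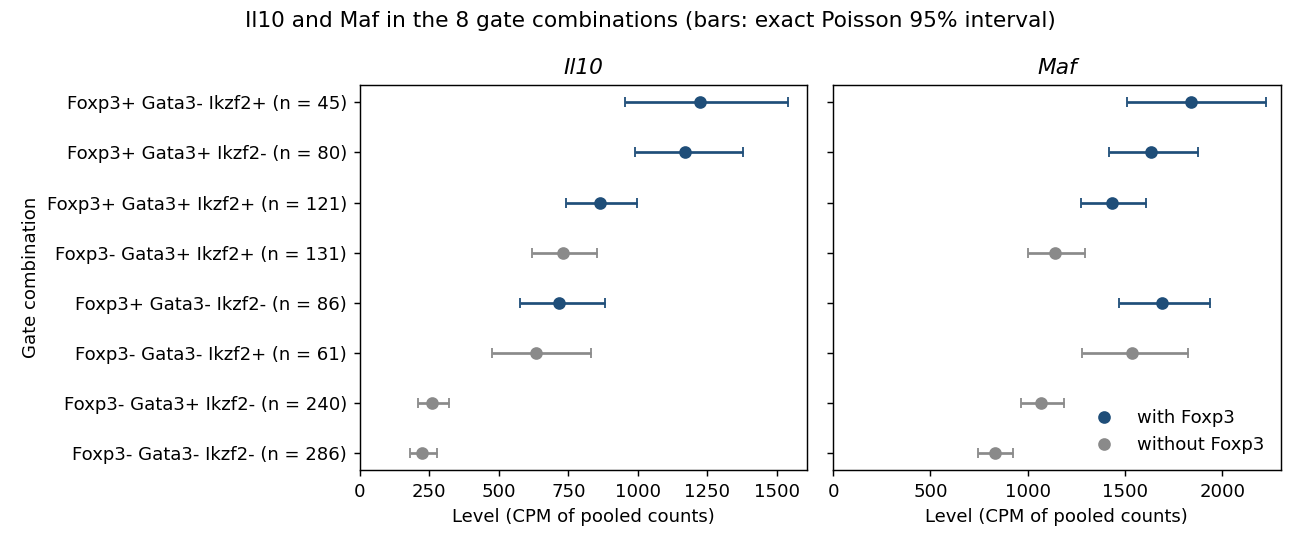
Pooled level of Il10 (left) and Maf (right), in CPM on linear axes, in the 8 combinations of a count or no count of Foxp3, Gata3 and Ikzf2, sorted by Il10; n is the number of cells, colours give the Foxp3 gate and bars are exact Poisson 95% intervals. Il10 is at 260 and 225 CPM in the 2 lowest rows and at 635 CPM or above in the rest.

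Ikzf2 and Il10 went together among cells without Foxp3 and not among cells with it. In cells with Foxp3, Il10 stood at 941 CPM in the 166 cells with Ikzf2 and 944 CPM in the 166 without it (log2 ratio -0.00, -0.27 to 0.26), and was found in 45.8% (38.0 to 53.7) and 42.2% (34.6 to 50.1) of them. In cells without Foxp3, Il10 stood at 702 CPM in the 192 cells with Ikzf2 and 241 CPM in the 526 without it (1.54, 1.25 to 1.84), and was found in 28.6% (22.4 to 35.6) and 12.4% (9.67 to 15.5). The difference between the ratios, with Foxp3 minus without, was -1.55 (-1.93 to -1.16). Turned round, cells with Foxp3 exceeded cells without it by 0.42 (0.15 to 0.70) where Ikzf2 was detected and by 1.97 (1.68 to 2.26) where it was not. Among cells without Foxp3, 3 of 5 members were at least 1.5-fold higher with Ikzf2, against 11.2% of genes; Batf was the third, at 85.6 against 36.4 CPM (1.24, 0.39 to 2.08), after Il10 and Prdm1 (0.72, -0.13 to 1.53). After thinning Batf was found in 2.08% (0.570 to 5.25) of cells with Ikzf2 and 2.66% (1.46 to 4.43) of cells without it, so the direction of the shares turned, with intervals that overlap. Among cells with Foxp3 it was 0 of 4 members with enough counts, against 8.43% of genes.

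A cell without a Foxp3 count cannot be read as a cell without the transcript at this depth, which bears on every value for cells without Foxp3. Of the 332 cells with Foxp3, 153 held a single count of it, and 171 (51.5%) still held one after thinning to 500 counts. Thinning goes below the depth of most kept cells, so this share does not measure misses at their own depth. Other Treg genes were measured in the same classes. Ctla4, which encodes an inhibitory receptor, stood at 1531 CPM in cells with Ikzf2 and no Foxp3 and 671 CPM in cells with neither, beside 1890 CPM in cells with both. Tnfrsf4, the gene of the costimulatory receptor OX40, stood at 671 and 249 CPM in the same classes without Foxp3, beside 979 CPM with both. Cells that lack Foxp3 and cells in which it was not caught cannot be told apart here. The share of undetected Foxp3 in the Ikzf2 result was not tested.

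Maf and Il10 showed the same dependence on the Foxp3 gate. Over all cells, Maf stood at 1813 CPM in the 266 cells with Il10 and 1006 CPM in the 784 without it (log2 ratio 0.85, 0.71 to 0.98). In cells with Foxp3 the levels were 1677 CPM with Il10 and 1522 CPM without it (0.14, -0.06 to 0.34), and Maf was found in 77.4% (69.7 to 83.9) and 71.0% (63.9 to 77.4). In cells without Foxp3 they were 1994 and 835 CPM (1.26, 1.07 to 1.44), and Maf was found in 84.2% (76.4 to 90.2) and 52.0% (47.9 to 56.1). The 2 ratios differed by -1.12 (-1.39 to -0.85). Leaving out naive-like cells and cells with at least 2 epithelial, myeloid, or stromal or endothelial markers gave 0.06 (-0.14 to 0.27) with Foxp3 and 0.99 (0.80 to 1.18) without it. With cells called positive from 2 counts of Il10 and cells with 1 left out, the ratio with Foxp3 was 0.36 (0.13 to 0.58), an interval that left out 0.

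Read the other way, the ratio of Il10 between cells with and without a regulator was larger for Maf than for the other 3, while the level in cells with the regulator was lowest for Maf. Il10 stood at 711 CPM in the 657 cells with Maf and 291 CPM in the 393 without it (log2 ratio 1.29, 1.04 to 1.55). It stood at 807 against 535 CPM by Prdm1 (0.59, 0.30 to 0.87), 727 against 544 CPM by Batf (0.42, 0.11 to 0.72) and 769 against 546 CPM by Irf4 (0.50, 0.15 to 0.83). Among cells without Foxp3 the ratios were 1.56 (1.20 to 1.95) by Maf, 0.66 (0.16 to 1.13) by Prdm1, 0.49 (-0.09 to 1.02) by Batf and 1.16 (0.71 to 1.59) by Irf4. Among cells with Foxp3 they were 0.47 (0.13 to 0.83), 0.18 (-0.19 to 0.53), -0.10 (-0.48 to 0.27) and -0.31 (-0.91 to 0.23) for the same 4 regulators. The difference by Foxp3 left out 0 for Maf, at -1.09 (-1.59 to -0.60), and for Irf4, at -1.48 (-2.16 to -0.79). For Irf4 it rests on few cells: without Foxp3, Il10 was found in 11 of 44 cells with Irf4 (25%, 13.2 to 40.3) and 109 of 674 without it (16.2%, 13.5 to 19.2), shares whose intervals overlap. The pooled level of Maf by Prdm1 or Batf did not follow that order. By Prdm1 its log2 ratio was 0.50 (0.24 to 0.75) with Foxp3 and -0.15 (-0.52 to 0.21) without it, a difference of 0.64 (0.21 to 1.08). By Batf it was -0.22 (-0.52 to 0.07) with Foxp3 and -0.64 (-1.13 to -0.19) without it, a difference whose interval spanned 0 (0.42, -0.11 to 0.95). Shares of cells did not separate. With Foxp3, Maf was found in 82.2% (67.9 to 92.0) of cells with Prdm1 and 72.5% (66.9 to 77.6) without it. Without Foxp3 these were 60.5% (43.4 to 76.0) and 57.2% (53.4 to 61.0). By Batf they were 81.25% (67.4 to 91.1) and 72.5% (67.0 to 77.6) with Foxp3. Without Foxp3 they were 56.4% (39.6 to 72.2) and 57.4% (53.6 to 61.2).

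**Figure D3:**
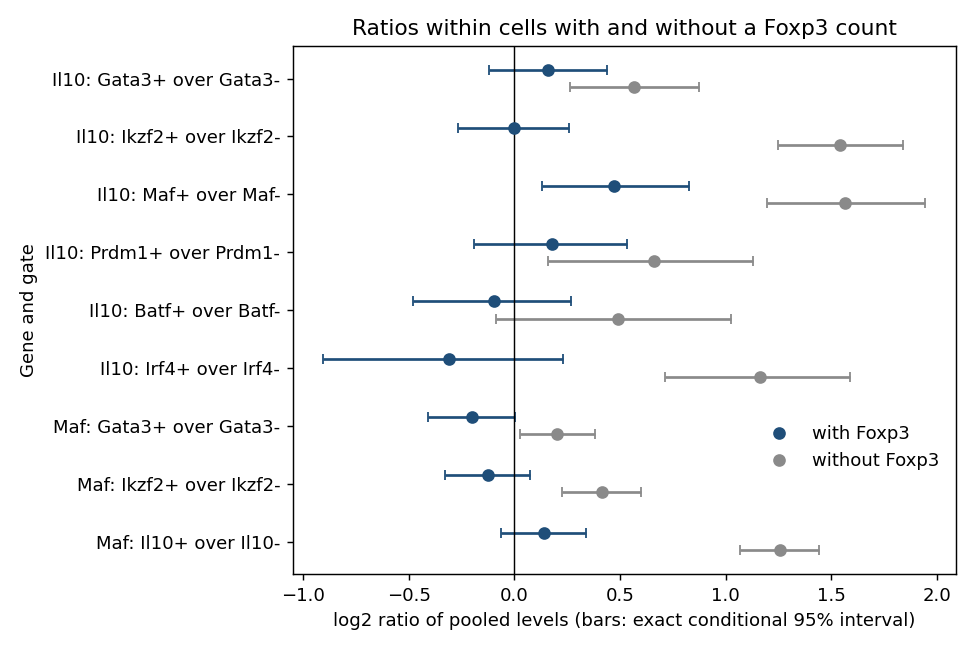
The log2 ratio of the pooled level of Il10 or Maf between cells with and without a count of the named gating gene, computed within cells with Foxp3 (blue) and within cells without it (grey); bars are exact conditional 95% intervals and 0 means equal levels. The grey points lie to the right of the blue ones in all 9 pairs drawn, furthest for Il10 by Ikzf2 (-0.00 with Foxp3, 1.54 without it). The ratios of Maf by Prdm1 and by Batf, which are not drawn, go the other way, with shares of cells whose intervals overlap.

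By the Il10 gate, Prdm1 stood at 114 against 69.0 CPM (log2 ratio 0.72, 0.17 to 1.27), Batf at 107 against 60.2 CPM (0.82, 0.24 to 1.39) and Irf4 at 66.9 against 66.4 CPM (0.01, -0.68 to 0.66). So 3 of 4 regulators were at least 1.5-fold higher in cells with Il10, against 11.3% of genes. After thinning Batf stood at 0.38 (-0.80 to 1.45), below that fold, and Prdm1 at 0.80 (-0.31 to 1.85) and Irf4 at 0.67 (-0.42 to 1.71) were past it with intervals that spanned 0. Without naive-like cells and cells with markers of another lineage, Prdm1 stood at 0.50 (-0.07 to 1.06), also below it. Within cells with Foxp3 it was 0 of the 3 with at least 50 counts, against 9.49% of genes, and within cells without Foxp3 3 of 4, against 15%. In cells without Foxp3, however, Prdm1 (0.44, -0.62 to 1.38) and Irf4 (0.62, -0.26 to 1.42) had intervals that spanned 0, and Batf (1.01, 0.04 to 1.91) rested on 15 counts in cells with Il10 and 37 in cells without it.

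Over all cells, Maf was higher in each class of cells with Il10 than in cells without it. Its top 2 classes by Il10 count did not differ beyond counting error. Maf stood at 1006 CPM in the 784 cells with no Il10 count, 1488 CPM in the 102 with 1, 2076 CPM (1821 to 2356) in the 79 with 2 or 3 and 1962 CPM (1732 to 2215) in the 85 with 4 or more. It was found in 56.5%, 76.5%, 82.3% and 83.5% of those cells in the same order. Foxp3 itself was found in 23.7%, 50%, 55.7% and 60.0% of them. Prdm1 was found in 6.38%, 12.7%, 8.86% and 15.3%, with wide intervals (8.40 to 24.7 in the last class). Within cells with Foxp3, Maf did not follow the same order. It stood at 1522 CPM (1382 to 1673) with no Il10 count and 1225 CPM (1003 to 1482) with 1. It then stood at 2063 CPM with 2 or 3 and 1863 CPM with 4 or more. Within cells without Foxp3 it stood at 835, 1821, 2090 and 2121 CPM in the same classes.

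Joint detection was set beside the number of cells that the single shares would give if the genes were detected independently of each other. Il10 and Maf were found together in 214 cells, 1.29 times the 166 of that product, where the median over 3461 other genes paired with Maf was 1.05. Il10 and Prdm1 were found together in 33 cells, 1.57 times the product of 21.0, and Il10 and Batf in 32, 1.45 times the product of 22.0, where the median over genes paired with Il10 was 1.04. For Il10 and Maf the ratio was 1.05 in cells with Foxp3 and 1.47 in cells without it, and 1.45 over all cells after thinning. Prdm1 and Batf were found together in 13 cells, against a product of 6.88, and Prdm1 and Irf4 in 4, against 5.14. The counts of the pairs with a sparse regulator are too small to order the pairs. All 5 members were found in 1 cell, 296 cells held none of them, and 17 cells held at least 3 of the 4 regulators.

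The share of cells with Il10 was higher where more regulators were detected. It was 11.4% (8.18 to 15.3) in the 334 cells with none of the 4 regulators, 29.9% (26.2 to 33.9) in the 558 with 1, 36.9% (28.9 to 45.4) in the 141 with 2 and 52.9% (27.8 to 77.0) in the 17 with 3 or more. Depth went the same way at first, with median counts of 1136, 1269, 1522 and 1487 in these classes. After thinning, the shares were 11.3%, 22.7%, 30.8% and 50%, the last from 4 cells. In cells with Foxp3 the unthinned shares were 37.3% (25.8 to 50), 45.1% (37.7 to 52.6), 45.2% (33.5 to 57.3) and 60.0% (26.2 to 87.8), and their intervals overlap throughout. In cells without Foxp3 they were 4.87% (2.62 to 8.18), 22.6% (18.5 to 27.2), 27.9% (17.7 to 40.1) and 42.9% (9.90 to 81.6), with a clear gap between none and 1. Maf was the regulator found most often: Il10 was found in 24.5% (20.4 to 29.0) of cells with Maf and 6.21% (3.78 to 9.53) of cells without it, among cells without Foxp3.

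**Figure D4:**
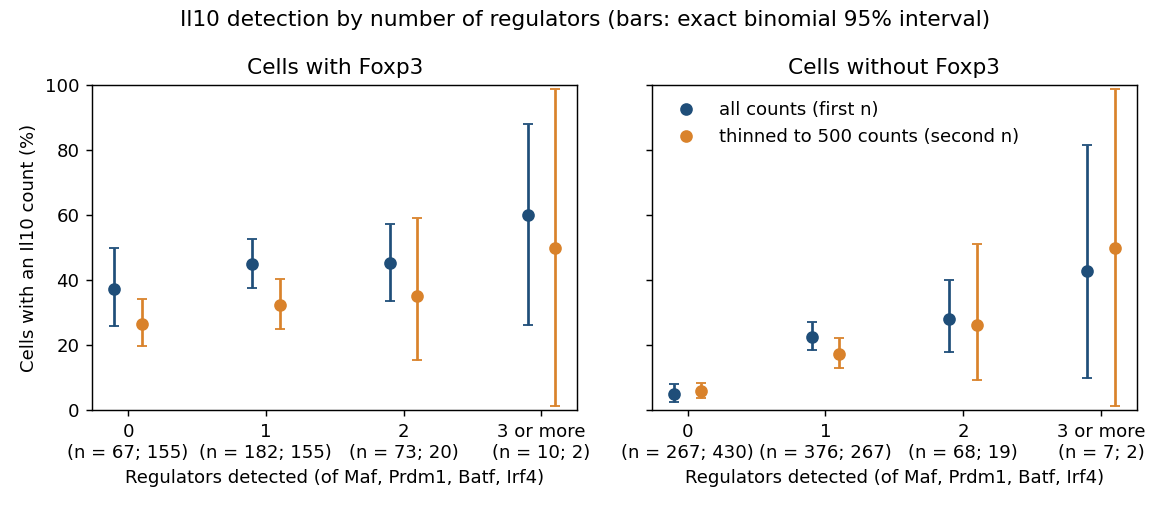
Percentage of cells with an Il10 count, by the number of the 4 regulators detected in the cell, for cells with Foxp3 (left) and without Foxp3 (right); blue points use all counts and orange points each cell thinned to 500 counts, with both numbers of cells under the axis and exact binomial 95% intervals as bars. Without Foxp3 the share is 4.87% at 0 regulators and 22.6% at 1; with Foxp3 it is 37.3% and 45.1%.

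Most measured genes of effector Treg cells were higher in cells with Il10. Of 20 genes on that list 16 had at least 50 counts, and 14 of these were at least 1.5-fold higher in cells with Il10, none lower, where 11.3% of all genes were higher and 13.7% lower; the median log2 ratio was 1.15 beside -0.01 over all genes. Gzmb, which encodes the protease granzyme B, stood at 1214 CPM in cells with Il10 and 231 CPM in cells without it (2.39, 2.17 to 2.61). Ctla4 stood at 2291 against 868 CPM (1.40, 1.27 to 1.53), Icos, a costimulatory receptor gene, at 2103 against 1057 CPM (0.99, 0.86 to 1.12), and Tnfrsf9, the gene of 4-1BB, at 765 against 282 CPM (1.44, 1.21 to 1.67). On a list of genes associated with type 1 regulatory cells, which make IL-10 without Foxp3, 4 of 5 measured members out of 12 were higher, with a median log2 ratio of 1.40. That median is the ratio of Ctla4, which is also on the effector Treg list. Another of the higher genes was Lag3, an inhibitory receptor gene, with 39 counts in cells with Il10 and 15 in cells without it (2.88, 1.99 to 3.85). The rise of the list for type 1 regulatory cells was not particular to cells without Foxp3. By Foxp3 itself, 3 of 5 were higher, with a median log2 ratio of 1.05, against 10.3% of genes. By Il10, 2 of 3 were higher within cells with Foxp3, against 9.49% of genes. Within cells without Foxp3 it was 2 of 4, against 15%.

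These Treg genes separated the Il10 classes mainly where Foxp3 was not detected. Ctla4 stood at 2294 CPM in cells with Il10 and no Foxp3, close to the 2289 CPM of cells with both, and at 635 CPM in cells with neither. Icos stood at 2103 CPM with Il10 alone, 2102 CPM with both and 818 CPM with neither, and Tnfrsf18, the gene of GITR, at 1014, 1029 and 445 CPM. Of the effector Treg list, 13 of 14 measured genes were at least 1.5-fold higher with Il10 in cells without Foxp3, where 15% of genes were, and 5 of 15, with 1 lower, in cells with it, where 9.49% of genes were higher and 9.05% lower. Ikzf4 (Eos), a transcription factor gene of Treg cells, was the lower one: 39.1 CPM in cells with Il10 and Foxp3, against 151 CPM in cells with Foxp3 alone (-1.95, -3.17 to -0.89), and 9 counts against 43.

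**Figure D5:**
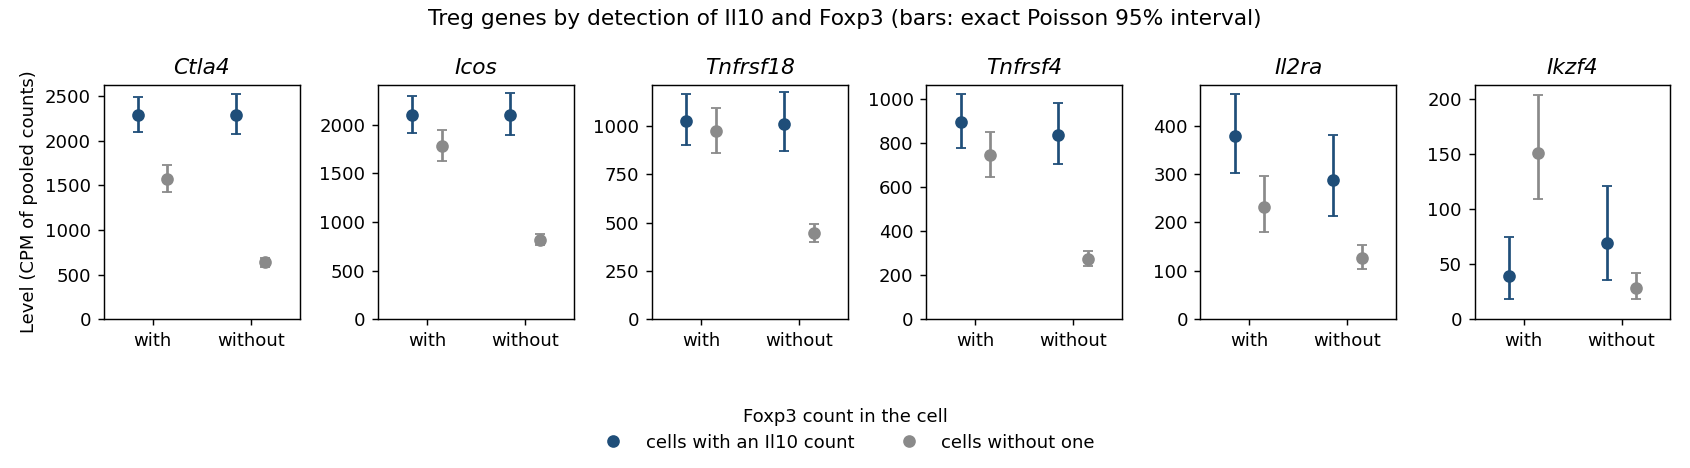
Pooled level of 6 Treg genes, in CPM on separate linear axes, in cells with (blue) and without (grey) an Il10 count, shown for cells with and without a Foxp3 count; bars are exact Poisson 95% intervals. For Ctla4, Icos, Tnfrsf18 and Tnfrsf4 the grey point without Foxp3 is the low one (635 CPM for Ctla4), and Ikzf4 is highest in cells with Foxp3 and no Il10.

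Naive genes went the other way. Of 12 genes of naive and memory cells, several of which Blimp-1 represses, 10 were measured and 9 were at least 1.5-fold lower in cells with Il10, where 13.7% of all genes were. Tcf7, the gene of TCF-1, stood at 14.9 CPM in cells with Il10 and 152 CPM in cells without it (-3.35, -4.82 to -2.20), S1pr1, which directs exit from tissue, at 19.8 against 109 CPM (-2.46, -3.70 to -1.44), Satb1 at 29.7 against 118 CPM and Klf2, a transcription factor gene that maintains S1pr1, at 235 against 427 CPM. The list shares genes with the naive marker set, 6 of 6 of which were lower. These counts are over all cells. Within cells without Foxp3, 8 of 8 measured genes of the list were lower, where 18.2% of genes were. Within cells with Foxp3 only 1 had at least 50 counts, Klf2, at 295 against 366 CPM, with an interval that spanned 0 (-0.31, -0.77 to 0.15). The fall of the list is thus not shown for cells with Foxp3.

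Receptor and partner genes are set here beside the 11.3% of all genes that were higher and the 13.7% that were lower. Of 7 genes of the IL-10 receptor and its signalling 6 were measured and 3 were higher, among them Il10ra, the ligand-binding chain, at 96.6 CPM in cells with Il10 and 41.0 CPM in cells without it (1.23, 0.58 to 1.88), and Bcl3, at 86.7 against 43.7 CPM (0.99, 0.32 to 1.64). Jak1, the kinase bound to the receptor, was detected widely and differed by 0.23 (0.07 to 0.38). Of 26 other reported regulators of Il10, 24 were measured, with 4 higher and 1 lower, shares near those over all genes. The 4 included Nfatc1 (1.07, 0.68 to 1.47), a calcium-dependent factor, and Crem (0.95, 0.63 to 1.26), a cyclic AMP responsive factor. Among bZIP partners and relatives of Batf and Maf, 2 of 10 were higher and 2 lower, with Junb, a partner of BATF, at 2593 against 1943 CPM (0.42, 0.31 to 0.52) and Mafg, a small Maf, at 124 against 67.2 CPM (0.88, 0.34 to 1.41). Of the other IRF genes, 4 of 8 were measured, with 0 higher and 1 lower, Irf1, at 37.2 against 56.8 CPM (-0.61, -1.53 to 0.21).

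Immediate early genes, which tissue digestion can induce, were higher in 2 of 11 measured and lower in 1, where 11.3% of all genes were higher and 13.7% lower. Nr4a1 stood at 711 against 383 CPM (0.89, 0.67 to 1.11) and Nfkbia at 3175 against 2005 CPM (0.66, 0.56 to 0.76) in cells with and without Il10; the part of digestion in the Il10 comparison was not tested. Of the cytokine genes 3 of 14 were measured over all cells. Ebi3, a subunit shared by IL-27 and IL-35, was higher, at 104 against 48.0 CPM (1.12, 0.50 to 1.72). Ifng was lower, at 12.4 against 51.5 CPM (-2.06, -3.73 to -0.75). Within cells with Foxp3, Ebi3 stood at 95.6 against 98.4 CPM (-0.04, -0.92 to 0.82). Within cells without Foxp3, Ifng had 5 counts with Il10 and 51 without it, and its interval spanned 0 (-1.04, -2.72 to 0.28). Cell cycle genes were at least 1.5-fold lower in 8 of 8 measured over all cells, and 5 of these had intervals below 0. Top2a, for one, stood at 61.9 against 141 CPM (-1.18, -1.85 to -0.57). Within cells without Foxp3, 2 of 4 measured were lower, where 18.2% of genes were. Top2a stood at 115 against 139 CPM there, and its interval spanned 0 (-0.27, -1.04 to 0.42). Within cells with Foxp3, 0 of the cell cycle genes had at least 50 counts.

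Among cells with Foxp3, the 6 genes highest with Il10 included Lgmn, the gene of the protease legumain (161 CPM with Il10, 49.2 CPM without it; 1.71, 0.79 to 2.71), Mmp9, a matrix metalloproteinase gene (226 against 77.3 CPM; 1.55, 0.80 to 2.34), and Furin, a proprotein convertase gene (256 against 91.4 CPM; 1.49, 0.80 to 2.21). Rtn4, Eea1 and Serpinb6a made up the 6, at 1.34 to 1.57. The genes named here are the extreme ratios among 1660 genes tested, taken only where the interval left out 0. The same rule was used among 3291 genes for cells without Foxp3. An interval clear of 0 was thus a condition of the choice. The lowest was Stmn1, a microtubule regulator gene of dividing cells, at 30.4 against 271 CPM (-3.15, -4.52 to -2.04), in 4 cells with Il10 and 10 without it, followed by Ikzf4, Rsrp1, Mat2b, Fbl and Trim28.

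Among cells without Foxp3, Gzmb led, at 1314 CPM with Il10 and 117 CPM without it (3.49, 3.14 to 3.84). Itgae, the gene of the CD103 integrin chain that holds T cells at epithelium, stood at 300 against 32.5 CPM (3.20, 2.51 to 3.92), and Lgmn (2.58), Arl5a (2.33) and Ncmap (2.31) were also among the 6 highest. Lgmn was thus among the 6 highest in both strata. The lowest 6 were Muc2, Krt8, Car1, Ceacam1, Sparc and Guca2a, genes mostly of epithelium, with 0 or 1 count in cells with Il10; Muc2 had 1 count, against 1274 in 17 cells without Il10 (-8.00, -13.3 to -5.52). After naive-like cells and cells with markers of another lineage were left out (85 cells without Foxp3), a choice made after the values were seen, Gzmb, Itgae, Lgmn and Arl5a were still among the first 5, at 3.16, 3.05, 2.49 and 2.16. The lowest were then Etfb, Exosc10, Med1, Tcf7, Tbcel and S1pr1, each with 1 to 3 counts in cells with Il10; Tcf7 stood at 17.6 against 140 CPM (-2.99, -5.29 to -1.40).

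The genes whose pattern over the 1050 cells was most like that of Il10 were named by Pearson's r of log-scaled counts, over 3272 genes found in at least 5% of cells. All cells share 1 table and differ in depth, so r is a description. For Il10 they were Ctla4 (r = 0.39), Gzmb (0.39), Arl5a (0.37), Sumo2 (0.35) and Icos (0.29), where the median over genes was 0.003, and the same 5 genes led after thinning. For Maf they were Icos (0.33), Ctla4 (0.28), Ccr2 (0.27), Gzmb (0.25) and Il10 (0.24), of which 3 stayed among the first 5 after thinning. The gates Foxp3, Gata3 and Ikzf2 were left out of the ranking. For the sparse members no gene passed 0.15: Icos led for Prdm1 (0.14), ahead of Il2ra, Gon4l, Dst and Sdcbp2, Spop for Batf (0.14), ahead of Tapbp, Cd83, Foxo1 and Zfp36l1, and Chchd3 for Irf4 (0.15), ahead of Gadd45b, Hnrnpll, Smco4 and Ppp1r10. Foxp3 itself would have come first for Prdm1 (0.14) and second for Batf (0.14). None of these 15 genes, 0 of 5 for each member, stayed among the first 5 after thinning.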

How the data were processed

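The authors deposited 1 table of counts per barcode and gene. Per the submitters' processing notes it was made with TopHat2, SAMtools and the mm10 build, with no version and no role named; how reads were counted or collapsed by molecular identifier, against which annotation, and whether barcodes had been filtered is not given in the sources used here. No barcode names its sample. The 4 samples could not be separated, so tests over samples were not made.

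The filters were 500 counts, 200 genes and a mitochondrial share below 20%, and kept barcodes held 501 to 13023 counts. Doublets were kept; Scrublet (scanpy 1.11.5) marked 10 of 1050 (0.952%), and leaving them out was an alternative. A gate is at least 1 count against 0. Levels are CPM of pooled counts with exact Poisson intervals, ratios have exact conditional intervals, and shares have exact Clopper-Pearson intervals, at 95% (scipy 1.17.1). Differences of a log2 ratio between cells with and without Foxp3 have 95% Wald intervals, a normal approximation that is not exact. The ratio was tested on simulated data. Reads are not known to be independent molecules, so all intervals cover counting error only. A gene at 0 on 1 side was set to a floor of 3 counts there. A gene with at least 50 counts in the compared cells was called at 1.5-fold. Cells were thinned to 500 counts. Genes named were the 5 members, the 5 genes most correlated with each, the 6 highest and 6 lowest by Il10 in each Foxp3 class and up to 4 per list by ratio over interval width. Members, gates and lists were chosen with earlier results of these data known. Alternatives changed the cell filters, weighting, thinning, gate threshold and the cells left out. One gene that the naming rule selected is not reported here.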

Additional observations from a re-analysis of the deposited data

Results flagged for a closer look

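Of the barcodes of the table, 914 had fewer than 500 counts, with a median of 86.5, and entered no comparison. Il10 stood at 328 CPM in them (38 counts, 232 to 450) and Maf at 682 CPM (79 counts, 540 to 850), beside 561 and 1216 CPM in the kept cells. Prdm1 stood at 51.8 CPM (6 counts, 19.0 to 113) and Batf at 77.7 CPM (9 counts, 35.5 to 147), beside 80.7 and 72.3 CPM. These are signals in data that were set aside, above the limit that a count of 0 allows. Irf4 had 3 counts there, at that limit.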

How the results depend on the processing

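No paired analysis was possible because no barcode carries a sample or replicate number; leaving out each sample could not be run for the same reason. No result changed its direction past the 1.5-fold threshold. Of 448 recomputed values, 403 stayed within the interval of the first value or within 1.5 times the first count. With counts capped at 1, the log2 ratio of Il10 was 0.25 by Gata3, 0.77 by Ikzf2 and 1.09 by Ikzf2 without Foxp3, and that of Maf by Il10 was 0.42 over all cells and 0.61 without Foxp3. With positive cells defined from 2 counts, Maf by Il10 was 1.0 over all cells and 0.36 with Foxp3. Thinned to 500 counts, Il10 by Ikzf2 with Foxp3 was -0.35 (-0.78 to 0.09), members past 1.5-fold by Foxp3 numbered 2, the share of cells with Il10 was 16.8%, and the joint ratio of Il10 and Maf was 1.45. Below the median depth, the Il10 share was 22.7%. Without naive-like cells and cells with markers of another lineage, chosen after seeing the data, Il10 by Gata3 was 0.24 and Maf by Il10 was 0.63 over all cells and 0.99 without Foxp3. The cause of these shifts was not tested. Depth limits Prdm1, Batf and Irf4 most, which hold 103 to 125 counts each.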

Other observations

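Dividing cells stood low for Il10. In 50 cells with at least 2 cell cycle genes, at a median of 2796 counts, Il10 stood at 52.8 CPM (22.8 to 104) and was found in 6 cells, beside 561 CPM over all kept cells. Maf stood at 574 CPM (460 to 708) in them, Prdm1 at 66.0 CPM (31.7 to 121), Batf at 19.8 CPM (4.08 to 57.9) and Irf4 at 79.2 CPM (40.9 to 138), beside 1216, 80.7, 72.3 and 66.5 CPM over all kept cells. After thinning, Il10 was found in 6.00% of the dividing cells (1.25 to 16.5) and in 16.8% of all kept cells.

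The deeper cells did not hold the higher levels. Il10 was found in 28.0% of the 525 cells at or above the median depth and 22.7% of the 525 below it, while its level was 534 CPM (490 to 580) and 619 CPM (552 to 693). Maf stood at 1091 CPM (1029 to 1156) and 1484 CPM (1378 to 1595) in the same cells. Summed myeloid markers stood at 357 CPM in cells with Il10 and 504 CPM in cells without it, with 6 and 1 of 11 markers at 0. Summed B or plasma cell markers stood at 431 and 396 CPM, with 4 and 0 of 8 at 0. A single gene gave most of each of these sums over all cells. Cst3, found in 250 cells, held 451 of 721 myeloid counts, and Ighm, found in 312 cells, held 585 of 628 B or plasma counts. These sums therefore do not measure the content of myeloid or B cells. Summed epithelial markers stood at 17.3 and 2585 CPM, with 5 and 0 of 10 at 0. Summed stromal or endothelial markers stood at 64.4 and 590 CPM, with 1 and 0 of 6 at 0. Markers of CD8, gamma delta, innate lymphoid or NK cells stood at 37.2 and 42.8 CPM, with 5 and 1 of 7 at 0. Values without cells that held epithelial, myeloid, or stromal or endothelial markers are given above; the part of cells with B, plasma, CD8, gamma delta, innate lymphoid or NK markers was not tested.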
